A study of Homo sapiens with 18 samples.

Results

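The comparison described here set MDA-MB-231 cells that received a hairpin against E2F1 (shE2F1) against the same cells with a control hairpin. The members were the libraries whose labels name these treatments, 4 of the 10 distinct libraries of the series with 2 per group, and all 15373 genes that passed a filter on low counts, of 62703 genes in each file. MDA-MB-231 is an established cell line of triple-negative breast cancer, a class of tumours without the estrogen and progesterone receptors and without amplified HER2. The study sequenced polyadenylated RNA of this line after knockdown of EZH2 or E2F1 and after treatment with an EZH2 inhibitor, to learn which genes depend on each protein. Both groups compared here were transduced with a lentiviral short hairpin RNA (shRNA) for 24 h and then kept for 72 h in puromycin at 2 µg/ml, so that the controls carry the vector and the selection too. The cells were transduced pools of this line with 1 hairpin against E2F1, so that the effect of E2F1 loss and any other effect of that hairpin cannot be told apart. Nothing in the labels says that replicates came from separate cultures, and p-values measure the spread between these libraries, which may be technical.

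E2F1 is a transcription factor that binds DNA as a dimer with a DP protein. The retinoblastoma protein RB holds it inactive until cyclin-dependent kinases phosphorylate RB late in G1, and the freed E2F proteins then switch on genes of DNA replication and nucleotide supply. Genes of mitosis are switched on later, by the MuvB complex with B-MYB and FOXM1, often through a short promoter element called the CHR. E2F1 is also known as an activator of cell death genes, and E2F4 and E2F5 as members that repress with the RB relatives p107 and p130.

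The libraries held 19491509 and 17790706 expected counts with control shRNA and 19441814 and 17111884 with shE2F1. At these depths 0 counts leave room for a level of 0.1539 to 0.1753 CPM at most, before scaling by TMM and counting error alone considered. Levels are given as CPM, the gene's count scaled to the library's depth and by TMM, and changes as log2 fold changes of shE2F1 over control shRNA with their standard error (SE). A gene is said to rise or fall where edgeR's quasi-likelihood test gave an adjusted p under 0.01, by Benjamini and Hochberg over the 15373 genes. It is called where the change is also over 2-fold, the thresholds of the study. All 10 markers of MDA-MB-231 cells were expressed and 6 of them fell, where 16.5% of all genes tested fell. The summed level of the 10 was 12400 and 13300 CPM with control shRNA against 8290 and 8480 CPM with shE2F1. Of 12 luminal breast markers 8 were tested, with sums of 701 and 548 CPM against 526 and 520 CPM. The receptor genes ESR1 and PGR had 0 counts in both control libraries, and ESR1 had 2 and 4 counts in the shE2F1 libraries. The 12 markers of leukocytes and endothelium summed to 6.29 and 4.67 CPM with control shRNA and to 3.57 and 2.44 CPM with shE2F1, and 4 of them were tested. Their part in the results below was not tested. In such bulk RNA, fewer cells of a kind and less RNA per cell cannot be told apart.

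A large share of the expressed genes differed between the groups. Of 15373 genes tested, 861 (5.6%) were called higher in shE2F1 and 916 (5.96%) lower, and without the fold requirement 2091 (13.6%) rose and 2529 (16.5%) fell. The median change over all genes was 0.00. The calls were not alike in size or in the level of the genes. Among the called genes, 308 were over 4-fold higher and 165 over 4-fold lower, and 140 and 35 were over 8-fold higher and lower. The genes called higher had a median of 2.96 CPM in the control libraries against 31.7 CPM for those called lower and 20.9 CPM for all genes tested. Long noncoding RNAs made up 15.2% of the genes called higher, 5.79% of those called lower and 12.2% of all. The median GC content was 48.1% in the genes called higher, 51.9% in those called lower and 48.0% in all. With a library left out, the genes at an adjusted p under 0.01 numbered 2309 without shE2F1 replicate 1 and 2200 without shE2F1 replicate 2, against 4620 in all.

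E2F1 itself (GRCh38 chromosome 20, 33675477 to 33686385, minus strand), the gene that the hairpin targets, measured 145 and 140 CPM with control shRNA against 26.2 and 22.7 CPM with shE2F1. It was therefore lower in both knockdown libraries than in either control, by 5.83-fold (log2 change -2.54 ± 0.24 (SE), edgeR adjusted p = 1.52e-05). The median change of the 10 genes of the E2F and DP family was -0.33, and 3 of them fell, where 16.5% of all genes tested fell. The other 2 that fell encode the E2F proteins that work with p107 and p130. E2F4 went from 80.3 and 93.2 CPM to 43.0 and 43.3 CPM (-1.0 ± 0.10), just past 2-fold and at -0.89 without control replicate 2. E2F5 went from 6.45 and 7.94 CPM to 1.74 and 1.52 CPM (-2.13 ± 0.29), in an interval that overlaps RBIS on the other strand. In both genes the groups did not overlap. The activators E2F2 (0.02 ± 0.25) and E2F3 (-0.04 ± 0.10) did not pass the test, nor did the repressors E2F6 (-0.48, edgeR adjusted p = 0.0106), E2F7 (-0.29, edgeR adjusted p = 0.0191) and E2F8 (-0.36), nor the partners TFDP1 (0.22) and TFDP2 (0.04).

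Levels of different genes are compared by TPM, which the authors scaled by transcript length and library. In the control libraries TFDP1 led the family at 117 and 114 TPM, E2F1 followed at 81.6 and 74.7 TPM and E2F4 at 63.8 and 68.8 TPM. E2F7 (25.7 and 21.9 TPM), E2F3 (18.4 and 19.6 TPM), E2F6 (14.7 and 16.8 TPM), E2F8 (13.5 and 15 TPM) and TFDP2 (12.1 and 13.4 TPM) came next. E2F5 (5.18 and 6.37 TPM) and E2F2 (2.45 and 2.6 TPM) were the lowest. Neighbours in this order did not overlap, except E2F6 and E2F8. After knockdown E2F1 was at 16.1 and 14.6 TPM, below E2F3 (19.6 and 22.5 TPM), E2F4 (38.5 and 41.8 TPM), E2F7 (21.5 and 22.1 TPM) and TFDP2. TFDP2 was at 22.2 and 22.8 TPM there although its CPM groups overlapped, 43.2 and 36.4 with control shRNA against 41.0 and 40.7 with shE2F1. TPM divides by a length weighted over the transcripts that RSEM assigned, and whether transcript use of TFDP2 differed was not tested.

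**Figure D1:**
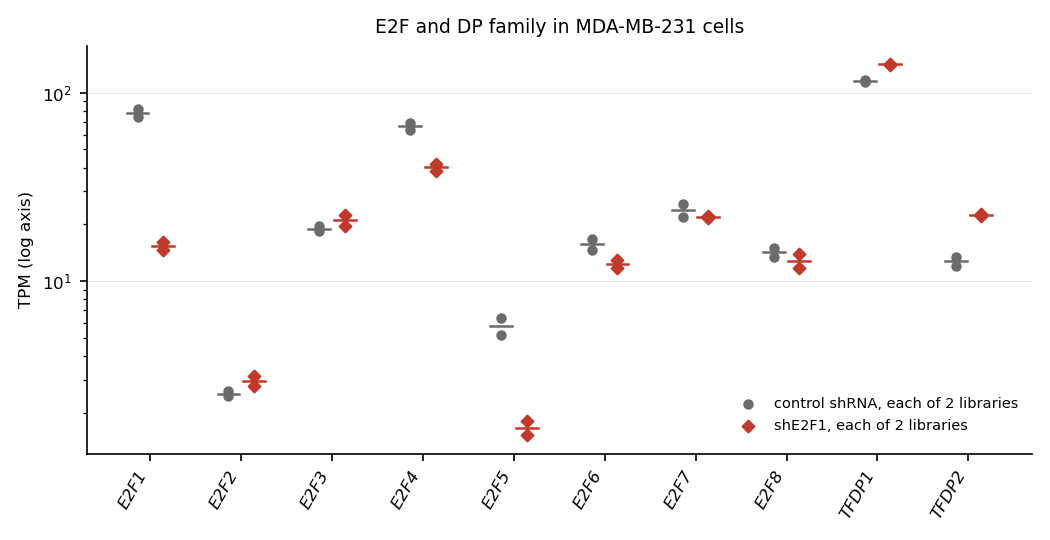
TPM on a log axis of the 10 E2F and DP genes, with control shRNA in grey circles and shE2F1 in red diamonds, 1 point per library and a bar at the mean of 2. In TPM the groups lie apart for E2F1, E2F4, E2F5 and E2F6, lower in shE2F1, and for E2F2, TFDP1 and TFDP2, higher in shE2F1, with E2F1 at 81.6 and 74.7 against 16.1 and 14.6 TPM.

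The RB relatives and the inhibitors of cyclin-dependent kinases moved in both directions. RBL1, which encodes p107, rose from 59.8 and 59.8 CPM to 91.6 and 93.7 CPM (0.63 ± 0.09, edgeR adjusted p = 0.000279), and RBL2, which encodes p130, rose by 0.74 ± 0.16. RB1 did not pass (-0.14 ± 0.09). Of the inhibitors, CDKN2C (p18) fell from 103 and 99.6 CPM to 43.2 and 42.0 CPM, CDKN2D (p19) from 42.7 and 37.0 CPM to 16.4 and 16.4 CPM, and CDKN1B (p27) from 52.8 and 56.1 CPM to 26.2 and 28.5 CPM. CDKN1A (p21) rose by 0.41 ± 0.10. Each of these pairs of groups was apart in all 4 libraries. In G1, CCND1 (cyclin D1) fell from 881 and 980 CPM to 655 and 559 CPM and CDK6 from 124 and 151 CPM to 55.3 and 63.2 CPM, while CCNE1 (0.24) and CCNE2 (0.58, edgeR adjusted p = 0.0474), the E-type cyclins, did not pass. The rises of RBL2 and CDKN1A did not pass without control replicate 2 (edgeR adjusted p = 0.0164 and 0.0362), without shE2F1 replicate 1 (0.0212 and 0.0515) or without shE2F1 replicate 2 (0.0344 and 0.0658), nor did the fall of CCND1 without shE2F1 replicate 2 (0.0199).

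Genes of DNA replication, the classical targets of E2F proteins, differed little. Of 45 such genes of replication and deoxynucleotide supply, all tested, 8 fell and 2 rose, where 16.5% of all genes tested fell and 13.6% rose, and their median change was -0.14. Of them 4 fell without shE2F1 replicate 1 and 3 without shE2F1 replicate 2, and the 2 rising genes did not pass without either of these libraries. CDC6, which loads the replicative helicase, measured 110 and 126 CPM with control shRNA against 127 and 119 CPM with shE2F1. PCNA, the sliding clamp, was at 187 and 185 CPM against 176 and 160 CPM, and TK1 at 238 and 236 CPM against 232 and 217 CPM. None of these 3 passed the test, with changes between -0.14 and 0.06. Large falls were few. RRM2, the regulatory subunit of ribonucleotide reductase, went from 372 and 433 CPM to 82.7 and 67.3 CPM, 5.36-fold lower (-2.42 ± 0.23, edgeR adjusted p = 1.86e-05). The others called were GINS1 (-1.12 ± 0.14), of the replicative helicase, and POLD3 (-1.22 ± 0.11), of DNA polymerase delta. TYMS, thymidylate synthase, fell by 0.90 on the log2 scale and MCM2, of the helicase core, by 0.50, while CDT1, the other helicase loader, rose from 56.9 and 58.9 CPM to 83.9 and 80.5 CPM. TYMS did not pass without shE2F1 replicate 2 (edgeR adjusted p = 0.0101). MCM2 did not pass without any 1 of the 4 libraries, with an edgeR adjusted p from 0.0133 without control replicate 2 to 0.0874 without shE2F1 replicate 2. CDT1 did not pass without control replicate 1, shE2F1 replicate 1 or shE2F1 replicate 2 (edgeR adjusted p = 0.015, 0.0398 and 0.025).

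Genes of mitosis were lower as a group. The 5 lists cover mitotic entry, the spindle checkpoint, kinetochores and kinesins, condensins, and the MuvB, B-MYB and FOXM1 regulators. Of their 71 members, all tested, 47 fell and 2 rose, where 16.5% of all genes tested fell. Their median change was -0.69, and 59 were below 0. Of the 71 genes 13 were called lower, past 2-fold, where 5.96% of all genes tested were. The median change of the 71 was -0.80 without control replicate 1 and -0.59 without control replicate 2. Without each library in turn, 34 to 46 of them fell, with kinetochore and kinesin genes at 10 without shE2F1 replicate 1 against 18 in all.

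Within mitotic entry, 9 of 12 genes fell, where 16.5% of all genes tested fell. CCNB1, cyclin B1, went from 323 and 395 CPM to 154 and 147 CPM (-1.26 ± 0.11, edgeR adjusted p = 1.08e-05), and PLK1, a kinase of mitotic entry and spindle assembly, from 166 and 195 CPM to 76.2 and 74.0 CPM (-1.26 ± 0.11). CCNA2, cyclin A2, fell from 225 and 252 CPM to 131 and 131 CPM, AURKA from 231 and 268 CPM to 128 and 129 CPM, and CDK1 from 100 and 130 CPM to 73.2 and 76.9 CPM. The groups were apart in each of these genes. Of the genes of the spindle checkpoint and anaphase, 11 of 16 fell. ESPL1, the protease separase, went from 97.2 and 110 CPM to 30.5 and 35.5 CPM and CDC20, an activator of the anaphase-promoting complex, from 367 and 435 CPM to 205 and 188 CPM. Among kinetochore and kinesin genes, 18 of 24 fell, with KIF20A, a kinesin of cytokinesis, at 176 and 198 CPM against 53.4 and 55.5 CPM (3.43-fold lower). TOP2A, topoisomerase II alpha, fell 2.4-fold, and MKI67, which encodes the Ki-67 proliferation marker, went from 786 and 871 CPM to 405 and 483 CPM. FOXM1 fell from 360 and 393 CPM to 235 and 230 CPM, and the MuvB subunit gene LIN52 fell by 1.59 on the log2 scale. MYBL2 (B-MYB) was at 79.6 and 87.5 CPM against 119 and 119 CPM and did not pass (edgeR adjusted p = 0.0333). Of the 7 genes in the list of MuvB, B-MYB and FOXM1, 2 fell and 1 rose. In that list 5 genes were above 0, the median change was 0.12 and the highest was 1.27. AURKB fell by 0.79 on the log2 scale with all libraries, and its edgeR adjusted p was 0.0203 and 0.0297 without control replicates 1 and 2 and 0.0579 and 0.0623 without shE2F1 replicates 1 and 2. CDK1 did not pass without shE2F1 replicate 1 or 2 (edgeR adjusted p = 0.0298 and 0.0195). CDC20 was under 2-fold without control replicate 2 (-0.89) or shE2F1 replicate 2 (-0.97).

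**Figure D2:**
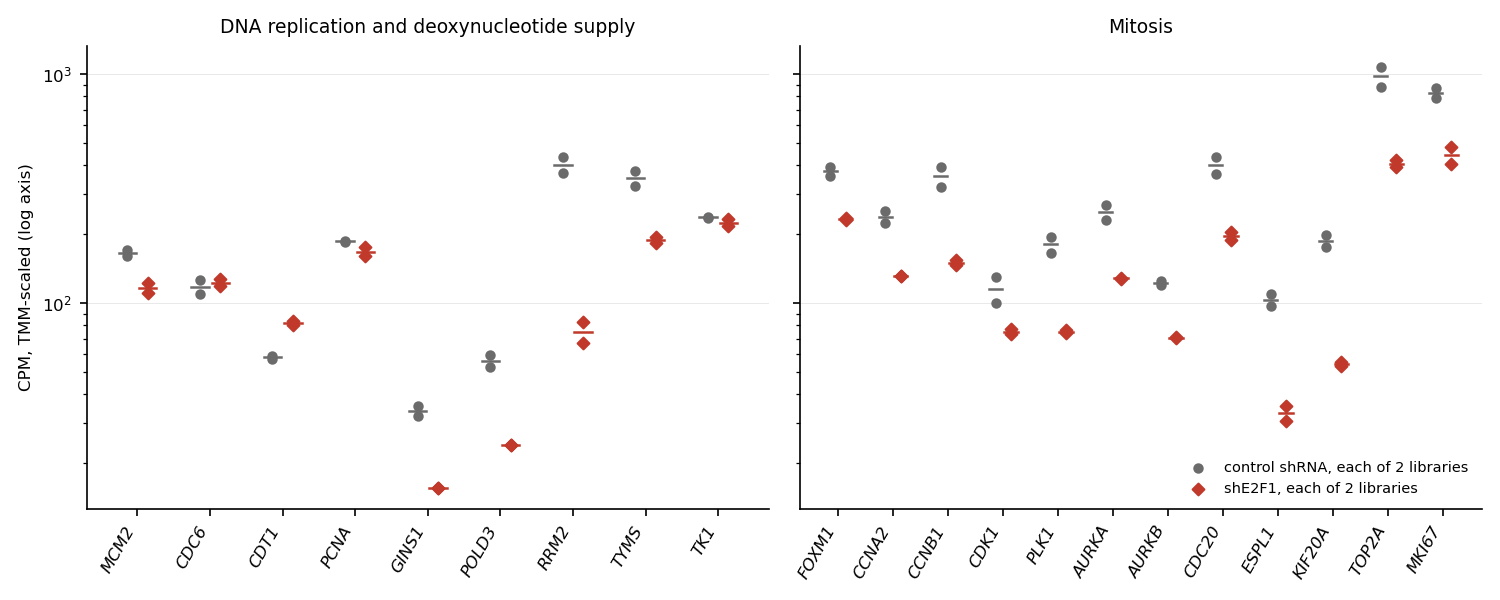
CPM on a log axis of 9 genes of DNA replication and deoxynucleotide supply (left) and 12 genes of mitosis and its regulators (right), control shRNA in grey circles and shE2F1 in red diamonds, 1 point per library and a bar at the mean. On the left CDC6, PCNA and TK1 lie close together and RRM2 lies apart. On the right both shE2F1 libraries lie below both control libraries for the 12 genes drawn. MYBL2, of the same lists, is not drawn and was higher in both shE2F1 libraries (79.6 and 87.5 against 119 and 119 CPM).

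Promoter sequences show what the genes of each group share. RefSeq promoters (GRCh38.p14), 250 bases before to 50 bases after the start, were searched on both strands for the E2F motif as TTCGCGC, with the further forms TTGGCGC, in addition TTCCCGC, and lastly TTGCCGC. The CHR was searched as TTTGAA and in the other form TTCGAA, and no form of one motif holds a form of the other. The search took the 7910 genes tested that have a unique symbol and a single annotated start. Among the 29 replication and deoxynucleotide genes with such a promoter, 82.8% held the E2F motif and 10.3% the CHR. Among the 44 mitotic genes, 22.7% held the E2F motif and 75.0% the CHR, where 20.9% and 10.9% of all 7910 promoters did. The 150 bases before the start are shown for genes of either kind, with the motif in capitals, E2F1 and CDT1 for the E2F motif and CDC20, PLK1, ESPL1 and MKI67 for the CHR. They lie at chr20:33686386-33686535 (minus strand) for E2F1, chr16:88803639-88803788 for CDT1, chr1:43358831-43358980 for CDC20, chr16:23678739-23678888 for PLK1, chr12:53268149-53268298 for ESPL1 and chr10:128126424-128126573 (minus strand) for MKI67, with the others on the plus strand. CCNB1 (chr5:69167000-69167149, plus strand) is added as a mitotic gene with the E2F motif and neither searched form of the CHR in this stretch. Other forms of the CHR were not searched, so their absence is not shown.
E2F1: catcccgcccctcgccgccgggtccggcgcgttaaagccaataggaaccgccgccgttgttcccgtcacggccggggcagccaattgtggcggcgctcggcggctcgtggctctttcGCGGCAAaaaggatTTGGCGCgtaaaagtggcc
CDT1: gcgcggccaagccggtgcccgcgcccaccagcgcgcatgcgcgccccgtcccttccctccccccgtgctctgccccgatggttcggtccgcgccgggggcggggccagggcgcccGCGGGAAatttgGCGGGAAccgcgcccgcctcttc
CCNB1: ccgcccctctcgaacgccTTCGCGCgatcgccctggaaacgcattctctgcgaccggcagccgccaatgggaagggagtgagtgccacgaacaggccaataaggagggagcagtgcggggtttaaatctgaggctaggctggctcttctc
CDC20: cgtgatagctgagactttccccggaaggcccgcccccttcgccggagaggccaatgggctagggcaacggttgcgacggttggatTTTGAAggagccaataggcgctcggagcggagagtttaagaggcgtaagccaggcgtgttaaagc
PLK1: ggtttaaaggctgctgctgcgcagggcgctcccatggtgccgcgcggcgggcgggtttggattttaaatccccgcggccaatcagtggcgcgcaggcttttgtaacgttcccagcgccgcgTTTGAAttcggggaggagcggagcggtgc
ESPL1: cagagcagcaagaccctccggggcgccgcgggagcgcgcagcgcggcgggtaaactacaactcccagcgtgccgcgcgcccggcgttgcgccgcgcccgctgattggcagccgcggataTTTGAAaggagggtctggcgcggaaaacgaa
MKI67: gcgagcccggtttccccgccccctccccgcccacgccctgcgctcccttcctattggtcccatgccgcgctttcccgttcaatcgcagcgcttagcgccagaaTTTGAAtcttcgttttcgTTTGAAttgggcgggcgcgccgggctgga

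Over all genes, those with the E2F motif were called lower about as often as the rest. Of the 1653 genes with the E2F motif, 6.05% were called lower, against 6.04% of all 7910, and 3.39% were called higher, against 4.93%. Their median change was -0.03. Of the 864 genes with the CHR, 7.41% were called lower and 21.2% fell, against 17.6% of all 7910, and their median change was -0.11. The share with the E2F motif was 20.9% in the 478 genes called lower and 14.4% in the 390 called higher, and the share with the CHR was 13.4% and 11.3%. A match describes these letters in this window and is no measure of binding.

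Genes of p53 signalling and cell death showed both directions, where 13.6% of all genes tested rose and 16.5% fell. Of 20 p53 targets, 5 rose and 3 fell, a median change of 0.24. MDM2, the ubiquitin ligase that restrains p53, rose from 29.2 and 27.7 CPM to 67.6 and 71.2 CPM (1.29 ± 0.10, edgeR adjusted p = 4.95e-06), and GADD45A, a stress gene, from 70.3 and 70.4 CPM to 159 and 155 CPM (1.16 ± 0.09). MDA-MB-231 cells are known to carry mutant p53. Of 17 cell death genes tested, 6 rose and 3 fell. BIRC3, an inhibitor of apoptosis, rose from 50.5 and 65.8 CPM to 247 and 241 CPM, 4.2-fold. APAF1, of the apoptosome and a known E2F1 target, fell from 24.3 and 24.2 CPM to 12.3 and 16.5 CPM. It was lower in each shE2F1 library than in either control, and did not pass without shE2F1 replicate 1 (edgeR adjusted p = 0.0349). The counts of rising genes depended on single libraries. Of the p53 targets 2 rose without control replicate 2 or without either shE2F1 replicate, and of the cell death genes 3 rose without control replicate 1, control replicate 2 or shE2F1 replicate 1 and 2 without shE2F1 replicate 2. Without shE2F1 replicate 1, 1 cell death gene fell. In homologous recombination 5 of 17 genes rose and 1 fell, with BRCA1 at 40.6 and 46.4 CPM against 87.2 and 91.6 CPM. There 2 rose without shE2F1 replicate 2, and BRCA1 was under 2-fold (0.94) without control replicate 1.

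PRC2, the Polycomb complex whose methyltransferase is EZH2, was little changed in its core. EZH2 measured 155 and 183 CPM with control shRNA against 122 and 138 CPM with shE2F1, apart but not past the threshold (-0.37 ± 0.12, edgeR adjusted p = 0.0227). SUZ12 (0.07) and EED (0.01) did not pass. EZH1, the paralog of EZH2, rose from 32.6 and 28.2 CPM to 66.0 and 77.3 CPM, and PHF19, an accessory subunit, fell from 266 and 290 CPM to 99.7 and 97.6 CPM (-1.49 ± 0.09, edgeR adjusted p = 1.56e-06).

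Cytokines of the interleukin-6 family and their signalling genes moved in different directions. IL11 (chromosome 19, 55364382 to 55370463, minus strand), a cytokine of this family, fell from 149 and 135 CPM to 11.1 and 10.9 CPM, 12.9-fold (-3.69 ± 0.11, edgeR adjusted p = 8.14e-08), and LIF fell from 54.8 and 62.0 CPM to 29.9 and 36.4 CPM. IL6 rose from 3.92 and 3.03 CPM to 11.3 and 10.8 CPM. No library of either group lay within the range of the other group for these genes. Of the receptor and feedback genes, OSMR fell from 151 and 119 CPM to 53.1 and 48.6 CPM, the shared receptor IL6ST did not pass (0.31 ± 0.08, edgeR adjusted p = 0.011), STAT3 rose from 163 and 176 CPM to 349 and 362 CPM, and its feedback inhibitor SOCS3 fell from 68.5 and 61.2 CPM to 29.1 and 26.3 CPM. Among the other cytokines, CXCL8 (interleukin-8) rose from 4.14 and 9.21 CPM to 40.2 and 60.7 CPM, IL32 from 7.52 and 11.7 CPM to 44 and 45.6 CPM, and CXCL16 from 0.645 and 0.849 CPM to 6.66 and 5.26 CPM. In all, 5 of the 16 cytokine genes tested rose and 2 fell, where 13.6% of all genes tested rose and 16.5% fell. The median change of the 16 was 0.76, or 1.24 without control replicate 2 and 0.56 without control replicate 1.

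Interferon-stimulated genes were higher on average. Of 27 tested, 10 rose, where 13.6% of all genes tested rose and 16.5% fell. Of the 27, 22 were above 0, and the median change was 0.50. Without shE2F1 replicate 1, 6 rose, and without control replicate 2 the median was 0.31. MX1, an antiviral GTPase, rose from 8.81 and 7.03 CPM to 19.7 and 20.5 CPM (1.34 ± 0.16), OAS1, a sensor of double-stranded RNA, from 3.17 and 1.64 CPM to 10.2 and 9.17 CPM (1.99 ± 0.28), and ISG15 from 93.6 and 67.0 CPM to 153 and 154 CPM (0.94 ± 0.13). Most of those called were lowly expressed, RSAD2 for example at 2.47 and 3.39 CPM against 14.2 and 8.84 CPM, and its edgeR adjusted p was 0.0207 without shE2F1 replicate 1. GBP1, a guanylate-binding protein also known as an interferon target and no member of this list, fell from 29.2 and 31.9 CPM to 3.67 and 4.61 CPM. B2M and the other MHC class I genes differed less, with 1 of 13 rising, 3 falling and B2M at -0.05 ± 0.09.

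The extracellular matrix held several of the largest falls. Over all genes tested, 16.5% fell and 13.6% rose. Of 17 collagen genes tested, 8 fell and 2 rose, a median change of -0.65, and 5 fell without shE2F1 replicate 1 or without shE2F1 replicate 2. COL6A3 (chromosome 2, 237324003 to 237414328, minus strand), a chain of collagen VI, went from 25.3 and 33.2 CPM to 1.64 and 2.28 CPM, 14.9-fold lower (-3.90 ± 0.33, edgeR adjusted p = 8.23e-06). COL8A1 fell from 437 and 451 CPM to 128 and 118 CPM and COL13A1 from 133 and 110 CPM to 40.8 and 39.6 CPM. The glycoprotein genes went both ways. TNC, tenascin C, fell from 14.3 and 23.2 CPM to 1.79 and 1.90 CPM, FN1, fibronectin, rose from 201 and 188 CPM to 339 and 394 CPM, and THBS1, thrombospondin 1, was at 1503 and 1733 CPM against 2178 and 2302 CPM. The groups were apart in all 3 genes, and THBS1 (0.47 ± 0.11) did not pass without control replicate 1, shE2F1 replicate 1 or shE2F1 replicate 2 (edgeR adjusted p = 0.0199, 0.024 and 0.0503). Of the enzymes that crosslink the matrix, 7 of 11 fell and 1 rose, or 4 fell without shE2F1 replicate 2. LOXL1 fell from 28.2 and 21.8 CPM to 2.94 and 3.58 CPM and LOXL2, which overlaps ENTPD4 on its strand, from 671 and 589 CPM to 288 and 310 CPM, while LOX, of the same lysyl oxidase family, rose from 19.9 and 14.4 CPM to 38.1 and 33.8 CPM. LOX was under 2-fold without control replicate 2 (0.86) or shE2F1 replicate 1 (0.97), and LOXL2 without control replicate 1 (-0.99).

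Some genes by which cells attach to the matrix and degrade it had large falls. Of 17 matrix proteases and inhibitors tested, 4 fell and 2 rose, where 16.5% of all genes tested fell and 13.6% rose. Their median change was -0.18, and that of integrins and laminins was -0.35. ITGA3, an integrin subunit that binds laminin, went from 2204 and 1887 CPM to 555 and 514 CPM, 3.82-fold lower (-1.94 ± 0.12). In the list of integrins and laminins 8 of 20 fell and 2 rose, with 3 and 5 falling without shE2F1 replicates 1 and 2. PLAU, the protease urokinase, fell from 323 and 310 CPM to 42.7 and 36.8 CPM, 7.95-fold (-2.99 ± 0.13, edgeR adjusted p = 4.46e-07), and its receptor PLAUR from 109 and 139 CPM to 56.5 and 58.9 CPM. PLAT, the tissue-type activator of plasminogen, rose from 260 and 236 CPM to 454 and 560 CPM, so that the urokinase gene and the tissue-type gene moved in opposite directions. PLAUR and PLAT were under 2-fold without control replicate 2 (-0.91 and 0.97), and PLAT also without shE2F1 replicate 2 (0.87). ADAM19, a membrane metalloprotease, fell from 62.5 and 73.6 CPM to 5.12 and 6.40 CPM, in an interval that holds a same-strand gene model to which reads could also be assigned. AXL, a receptor kinase and marker of this line, fell from 1966 and 2157 CPM to 455 and 427 CPM, 4.68-fold.

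Markers of epithelial and mesenchymal state did not move as a block. Over all genes tested, 13.6% rose and 16.5% fell. CDH1, E-cadherin, rose from 0.860 and 0.182 CPM, which are 16 and 3 counts, to 9.89 and 6.46 CPM (3.91 ± 0.45, edgeR adjusted p = 6.41e-05). CDH11, a cadherin of mesenchymal cells, rose too, from 19.7 and 18.1 CPM to 92.9 and 82.9 CPM, while EPCAM, an epithelial adhesion gene, fell from 24.5 and 26.9 CPM to 11.2 and 10.5 CPM. VIM, vimentin, did not pass (-0.27 ± 0.10, edgeR adjusted p = 0.0397). CLDN1, of tight junctions, rose from 4.08 and 3.82 CPM to 35.4 and 33.2 CPM, 8.66-fold, and TRIM29, a basal epithelial gene, from 35.5 and 15.7 CPM to 356 and 356 CPM. The control libraries of TRIM29 differed, and its change was 4.50 without control replicate 1 and 3.33 without control replicate 2. Of the 10 tested genes of the EMT list 4 rose and 4 fell, and 2 rose without shE2F1 replicate 1.

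Genes of RAS and MAPK signalling were lower as a group, and the other signalling lists had members on both sides. In the output of RAS and MAPK signalling, 9 of 19 genes fell and 1 rose, 14 were below 0, and the median change was -0.61. DUSP6, an ERK phosphatase, fell from 110 and 99.7 CPM to 61.2 and 59.9 CPM, SPRY4 from 110 and 112 CPM to 56.3 and 61.6 CPM and FOSL1, an AP-1 subunit, from 560 and 752 CPM to 278 and 292 CPM, whereas DUSP5, another ERK phosphatase, rose from 79.9 and 78.0 CPM to 184 and 191 CPM. FOSL1 was under 2-fold without control replicate 2 (-0.97). Of the YAP and TEAD targets 3 of 18 rose and 4 fell, shares near the 13.6% and 16.5% of all genes tested, with CCN2 called lower at 2.4-fold and CCN1 at -0.18 ± 0.12. Among TGF-beta genes, PMEPA1 fell from 47.0 and 44 CPM to 11 and 9.11 CPM, and SMAD7 (0.10 ± 0.17) and TGFB1 (-0.11 ± 0.11) did not pass. AREG, an EGFR ligand, rose from 52.3 and 44.3 CPM to 119 and 131 CPM, ERRFI1, a feedback inhibitor of EGFR, fell from 358 and 377 CPM to 158 and 161 CPM, and EGFR did not pass (-0.40 ± 0.10, edgeR adjusted p = 0.0103).

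Genes of glucose use fell together. All 16 glycolysis genes were below 0 and 13 fell, where 16.5% of all genes tested fell and 13.6% rose. The median change of the 16 was -0.65. Of these, 7 fell without shE2F1 replicate 1 and 7 without shE2F1 replicate 2. SLC2A1, the glucose transporter GLUT1, went from 766 and 694 CPM to 145 and 122 CPM, 5.46-fold lower (-2.45 ± 0.11, edgeR adjusted p = 4.46e-07). PKM, pyruvate kinase, fell from 3314 and 3389 CPM to 890 and 836 CPM, LDHA, lactate dehydrogenase, from 2407 and 2405 CPM to 951 and 781 CPM, and PFKL, a phosphofructokinase, from 143 and 121 CPM to 46.7 and 44 CPM. GAPDH, often used as a reference gene, was at 5534 and 5878 CPM against 2909 and 2461 CPM, 2.12-fold lower, and ACTB, another, at 5575 and 5949 CPM against 2890 and 2442 CPM. Both shE2F1 libraries were below both controls in each of these genes, and GAPDH (-0.97) and ACTB (-1.0) were not past 2-fold without shE2F1 replicate 2. The list of hypoxia factor targets, which holds SLC2A1, had 10 of 16 lower and 1 higher. VEGFA, vascular endothelial growth factor, fell from 130 and 118 CPM to 48.5 and 53.5 CPM, ADM, adrenomedullin, from 71.7 and 94.6 CPM to 20.3 and 20.6 CPM, and CA9, carbonic anhydrase IX, from 12.5 and 7.21 CPM to 1.35 and 1.57 CPM. DDIT4, a hypoxia-inducible inhibitor of mTORC1 that is not in that list, went from 85.1 and 69.4 CPM to 8.16 and 9.22 CPM, 8.9-fold lower.

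**Figure D3:**
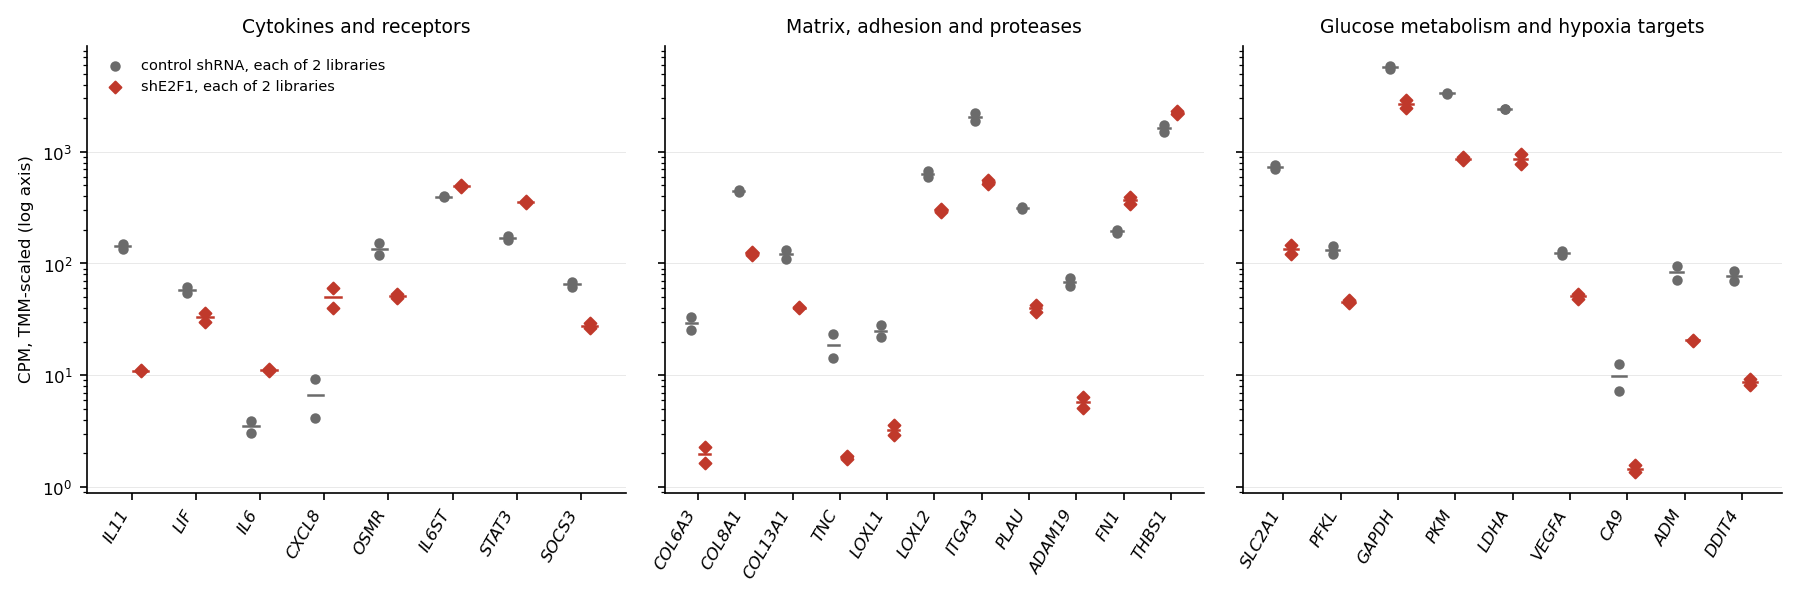
CPM on a log axis, 1 point per library and a bar at the mean, for interleukin-6 family and other cytokine genes (left), matrix, adhesion and protease genes (middle) and genes of glucose use and hypoxia (right). IL11 drops from 149 and 135 to 11.1 and 10.9 CPM while IL6 and CXCL8 lie higher in shE2F1, FN1 and THBS1 are the exceptions in the middle, and every gene on the right is lower in both shE2F1 libraries.

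Cholesterol genes were lower on average, and the control libraries differed for INSIG1. Of 22 genes, 8 fell and 1 rose, where 16.5% of all genes tested fell and 13.6% rose. The median change of the 22 was -0.39, or -0.15 without control replicate 1 and -0.59 without control replicate 2. INSIG1, a sterol-regulated gene that restrains cholesterol synthesis, measured 198 and 56.1 CPM with control shRNA against 40.1 and 44.4 CPM with shE2F1. Control replicate 1 was above control replicate 2 by more than the shE2F1 libraries differed. Without control replicate 1 the change of INSIG1 was -0.42 (edgeR adjusted p = 0.0263), against -1.59 with all libraries. INSIG1 did not pass without shE2F1 replicate 1 (edgeR adjusted p = 0.0687) or shE2F1 replicate 2 (0.052) either, and 4 genes of the list fell without shE2F1 replicate 1 and 4 without shE2F1 replicate 2.

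Among called protein-coding genes with a mean of at least 200 counts, the largest changes fell on genes from several of these lists and from none. RELN (chromosome 7, 103471381 to 103989658, minus strand), which encodes the secreted protein reelin, rose from 3.01 and 2.91 CPM to 57.9 and 64.0 CPM, 20.5-fold (4.36 ± 0.21, edgeR adjusted p = 8.13e-07). Of the 9 tested genes of the reelin list, RELN among them, 3 rose and 3 fell, where 13.6% of all genes tested rose and 16.5% fell. The median change of the 9 was 0.11, and the member DAB1 was not tested. The receptor gene VLDLR rose 4.73-fold and the other receptor gene LRP8 fell from 58.3 and 50.7 CPM to 16.5 and 17.9 CPM. DAB2 rose from 23.8 and 19.6 CPM to 82.4 and 89.3 CPM. FST, follistatin, an inhibitor of activins, rose from 31.8 and 34.7 CPM to 336 and 289 CPM. PDE5A, a cyclic GMP phosphodiesterase, rose from 1.29 and 2.00 CPM to 25.3 and 31.5 CPM, LBH from 6.93 and 4.24 CPM to 73.3 and 65.2 CPM, and ITGB2, an integrin subunit best known from leukocytes, from 5.37 and 5.52 CPM to 53.9 and 55.4 CPM. PTPRC, the defining leukocyte marker CD45, had 5 and 3 counts with control shRNA and 4 and 3 with shE2F1. PSG9 (1.24 and 0.667 against 21.9 and 17.5 CPM) and PSG4 rose too, pregnancy-specific glycoprotein genes whose close paralogs share sequence, so that the assignment of reads among them is uncertain. TSPAN8, FLVCR2, GPRC5B, ALDH1A3 and FGD4 complete the 15 with the largest rises at this count minimum, with changes of 3.42, 3.0, 2.86, 2.59 and 2.51, together with CXCL8, CLDN1 and TRIM29 above. FLVCR2 overlaps TTLL5 on its strand.

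Of the 15 largest falls under the same count minimum, 9 were in genes of no list, among them DDIT4 and GBP1 above. CHCHD3, a protein of the mitochondrial inner membrane, went from 134 and 155 CPM to 22.3 and 19.3 CPM (-2.80 ± 0.12), B4GALT3, a galactosyltransferase, from 55.2 and 57.9 CPM to 7.38 and 7.38 CPM (-2.94 ± 0.11), and STARD3NL, of late endosomes, from 52.6 and 53.6 CPM to 7.58 and 8.52 CPM (-2.72 ± 0.12). NEURL1B (-3.32), INSYN2B (-2.96), LFNG, a glycosyltransferase that acts on Notch receptors (-2.89), and GRIK4 (-2.69) were the others of no list. By amount of RNA, genes called at over 2-fold are ranked here by their difference in mean CPM. ACTG1, gamma actin, went from 4302 and 4726 CPM to 1196 and 994 CPM, and PLEC, the cytoskeletal linker plectin, from 3455 and 2679 CPM to 1406 and 1306 CPM, and with PKM, GAPDH and ACTB they were the 5 called genes with the largest loss of CPM. PLEC was just under 2-fold without control replicate 1 (-0.99). The gains of called genes were smaller. CD55, an inhibitor of complement, rose from 200 and 179 CPM to 657 and 605 CPM, and TRIM29, FST, PLAT and BMP4 followed among called genes. THBS1, which rose by less than 2-fold, gained more CPM than any of these 5. BMP4 (1.01 ± 0.21) was at 0.69 without control replicate 2 and did not pass without shE2F1 replicate 1 (edgeR adjusted p = 0.0359).

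**Figure D4:**
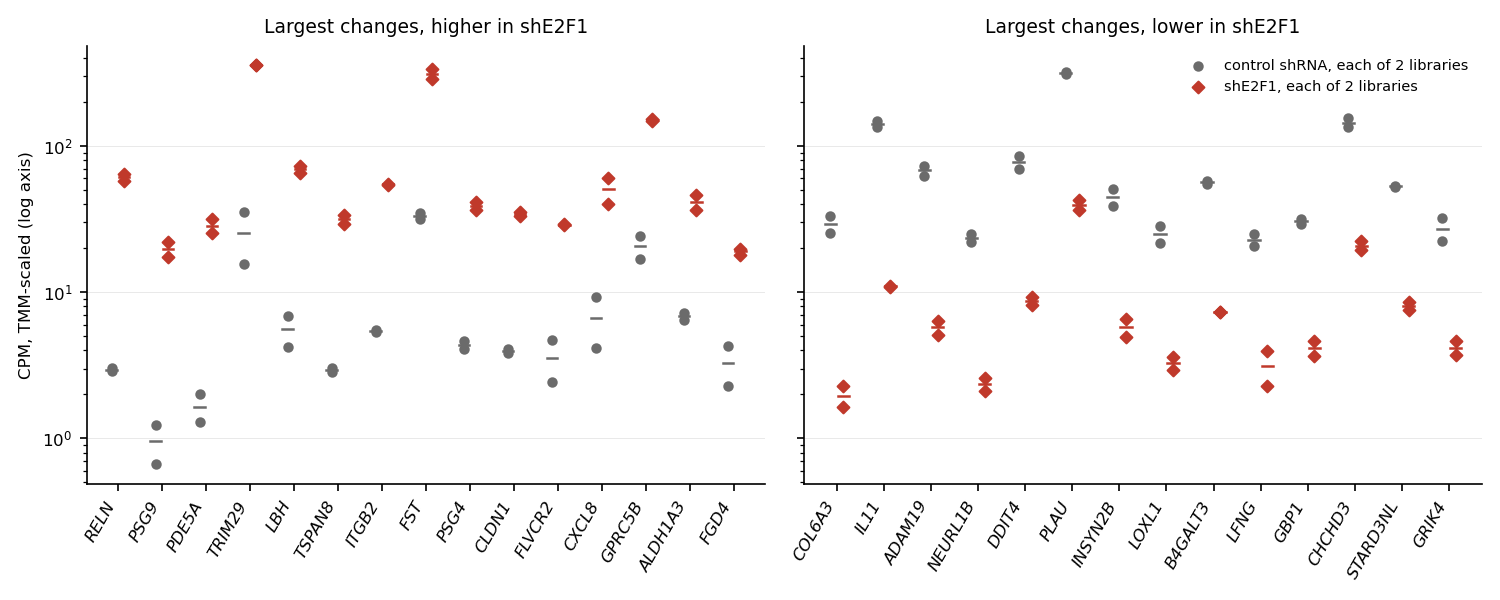
CPM on a log axis of 15 protein-coding genes with the largest rises (left) and 14 with the largest falls (right) among those with a mean of at least 200 counts, control shRNA in grey circles and shE2F1 in red diamonds, 1 point per library and a bar at the mean. RELN moves from 3.01 and 2.91 to 57.9 and 64.0 CPM and COL6A3 from 25.3 and 33.2 to 1.64 and 2.28 CPM, and the control libraries of TRIM29 lie apart (35.5 and 15.7 CPM).

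The plot of all lists sets these groups side by side. Of the 40 lists other than the cell type markers, those with the lowest medians were mitotic entry (-0.89), the spindle checkpoint (-0.80), kinetochores and kinesins (-0.66), collagens (-0.65) and glycolysis (-0.65), and those with the highest were cytokines (0.76), interferon-stimulated genes (0.50) and lysosome and autophagy genes (0.41), where the median of all genes was 0.00. DNA replication (-0.05) and PRC2 (0.02) lay near that median. Several lists had members on both sides, where 13.6% of all genes tested rose and 16.5% fell. Of 23 TGF-beta genes 4 rose and 5 fell, of 22 keratin, claudin and junction genes 5 and 5, of 18 genes of the unfolded protein and integrated stress responses 4 and 4, of 17 matrix proteases and inhibitors 2 and 4, of 12 Notch genes 2 and 2 and of 15 histone genes 2 and 1. The counts moved by over 1.5 times for TGF-beta genes (2 rising without shE2F1 replicate 1 and 2 without replicate 2), for stress response genes (2 falling without each of these) and for Notch genes (neither rising gene passed without shE2F1 replicate 1 or without replicate 2). Junction genes rising numbered 2 to 3 without each library, and those falling 2 without control replicate 1, 8 without control replicate 2, 3 without shE2F1 replicate 1 and 2 without shE2F1 replicate 2. Of the proteases and inhibitors 1 rose without each shE2F1 library.

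**Figure D5:**
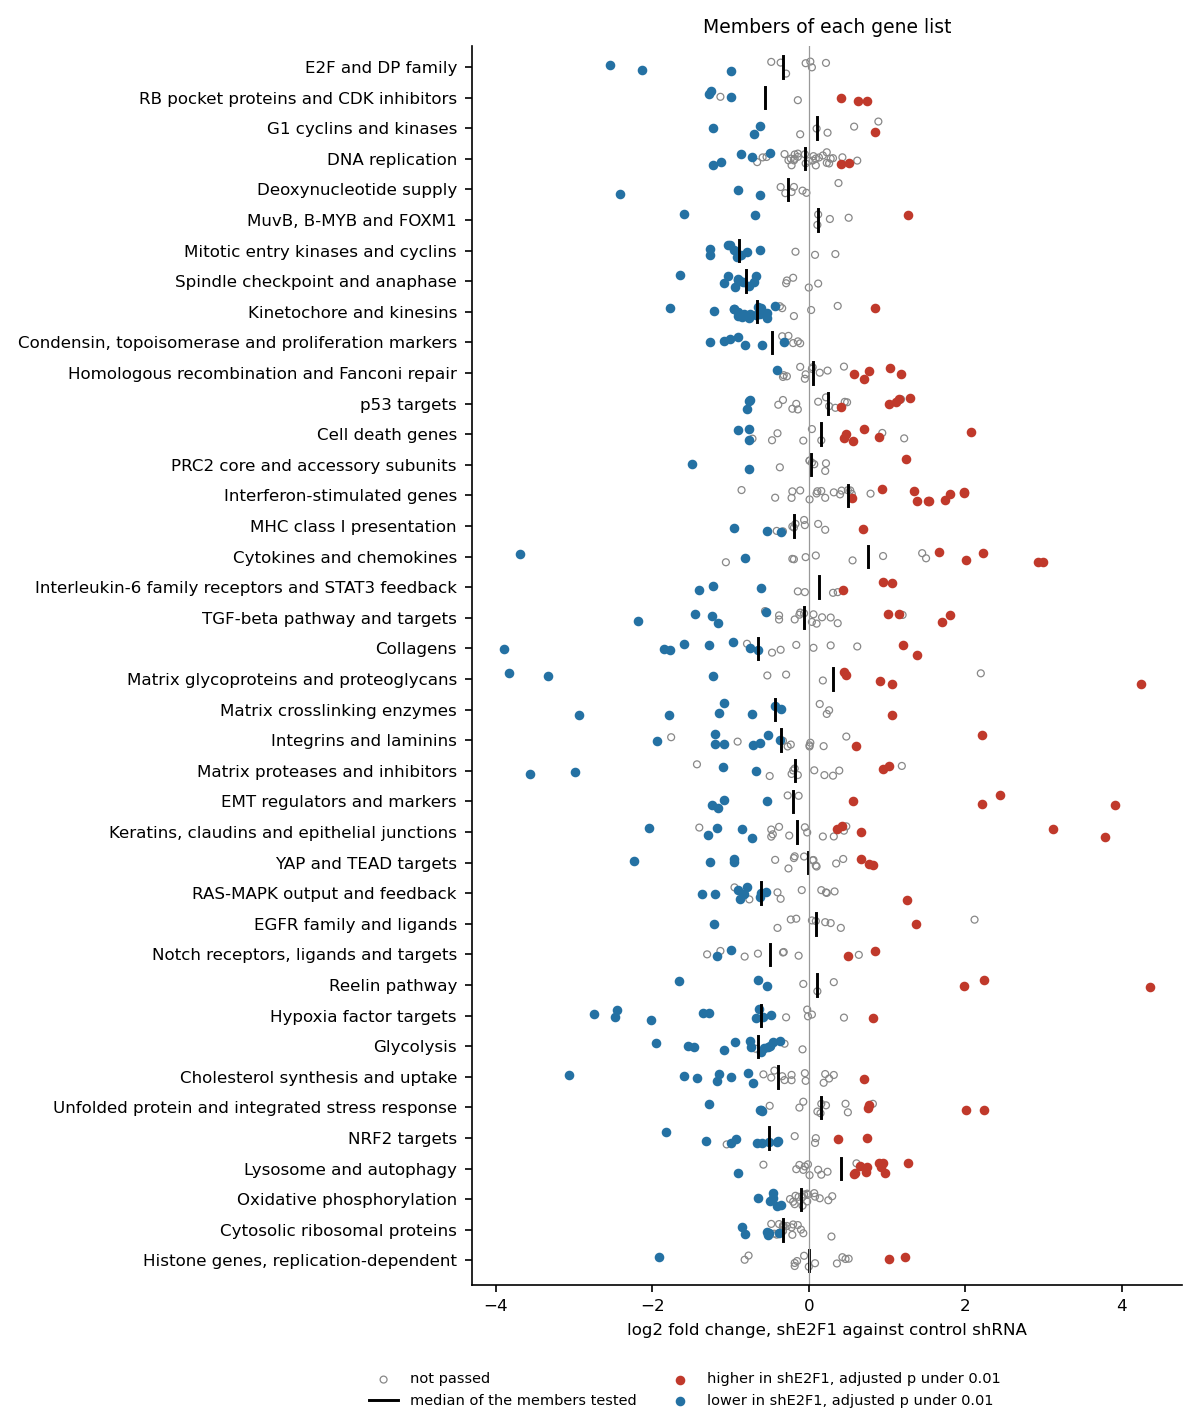
Log2 fold change of shE2F1 over control shRNA for each tested member of 40 gene lists, 1 circle per gene, filled in red or blue where it passed an adjusted p under 0.01 as higher or lower, with a black bar at the list's median and vertical jitter without meaning. The lists of mitotic entry, spindle checkpoint, kinetochores and kinesins, condensins and glycolysis have medians left of 0. The MuvB, B-MYB and FOXM1 list has its median at 0.12. Interferon-stimulated and lysosome lists have medians right of 0, while DNA replication centres on 0 at a median of -0.05.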

How the data were processed

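Libraries were strand-specific and made from polyadenylated RNA of the MDA-MB-231 line. Per the methods of the study and the labels, the authors aligned reads with STAR (2.7.2b in the submitters' processing notes) to hg38 with an Ensembl annotation and estimated abundance with RSEM 1.3.1. Whether counting used the strand is not given in the sources used here, so genes overlapping on opposite strands may share reads. The deposited files hold RSEM expected counts, which split a multi-mapped read between its genes. They also hold TPM, computed by the authors per transcript length and library and used only to compare levels between genes. The posterior standard deviation of the count, another deposited column from the authors' RSEM run, was read for the uncertainty of assignment only. Of 18 records, 8 repeat another exactly, and each of the 10 libraries was used once.

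After rounding of the expected counts, edgeR 4.0.16 under R 4.3.3 was used (filterByExpr, TMM, quasi-likelihood F-test, Benjamini-Hochberg adjustment). The 6 knockdown libraries (control shRNA, shEZH2, shE2F1) were fitted together without a covariate, so that they share 3 residual degrees of freedom, with a biological coefficient of variation of 0.0948. The study used DESeq2, run here as an alternative (1.42.0). The pipeline was tested on simulated data.

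Members and the 43 gene lists (707 genes, 654 tested) were chosen with earlier results of these data known, so lists are described by counts and medians and get no test. Named genes were E2F1, EZH2 and key list members, the 15 largest changes per direction among called protein-coding genes with a mean of at least 200 counts and non-overlapping groups, up to 4 called members per list, and the 5 largest differences of mean CPM per direction among called genes. PTPRC, ESR1 and PGR come from the marker lists and were named after their values were seen. Gene coordinates are from GENCODE 44 (99.9% of identifiers matched) and promoters from RefSeq. Alternatives were DESeq2, its size factors, other filters, the 4 libraries alone, a replicate block, an adjusted p under 0.05, other motif letters and leaving out each library. The hairpin sequence is not used here, and a few genes that the rule selects are not reported here.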

Additional observations from a re-analysis of the deposited data

How the results depend on the processing

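The study's thresholds gave 861 genes higher and 916 lower. Across DESeq2, its size factors in edgeR, the filters, the 4 libraries alone and an adjusted p under 0.05, these counts ran from 627 to 1180 and from 731 to 1074. Each library left out in turn gave 570 to 820 higher, 711 to 893 lower and 2200 to 3977 genes at an adjusted p under 0.01 (4620 in all). Deviations of same-numbered replicates over 11849 genes correlated at 0.0369 between control and shE2F1 and at 0.0429 between control and shEZH2. Between shE2F1 and shEZH2 they correlated at 0.195. With 2 replicates per group these values cannot settle whether replicate numbers pair the libraries. A replicate block gave 853 higher, 925 lower and 4727 at an adjusted p under 0.01. DESeq2 called 1498 genes and shared 83.7% of the 1777 calls. No scaling moved the median of all genes by over 0.1.

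Of 143 called genes that the naming rule selected, 101 kept the call under every alternative and 0 changed sign. Genes near 0 that did not pass turned. With a mean of at least 50 counts E2F3 was at 0.00. With each library left out, the changes ran from -0.13 to 0.06 for E2F3, -0.06 to 0.11 for E2F2, -0.07 to 0.16 for TFDP2, -0.09 to 0.11 for EED, -0.04 to 0.19 for SUZ12, -0.04 to 0.17 for CDC6, -0.23 to 0.03 for TGFB1, -0.04 to 0.27 for SMAD7, -0.22 to 0.35 for EREG and -0.14 to 0.05 for B2M.

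With the 6-base E2F forms the share of promoters with the motif was 72.4% in all genes, 71.5% in those called lower, 62.6% in those called higher and 77.3% in the mitotic lists. With TTTGAA alone the CHR was in 9.3% of all. With genes of any number of starts, chosen after seeing the data, the E2F motif was in 24.6% of all and 18.6% of those called higher, and the CHR in 15.4% of all, 17.9% of those called lower and 16.7% of those called higher. With 2 libraries per group, differences of lowly expressed genes rest on few counts. A share or a level under the floor of 3 counts was not detectable at this depth.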

Other observations

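Gene groups of the cell's basic machinery moved by small amounts. Over all genes tested, 13.6% rose and 16.5% fell. Of 24 cytosolic ribosomal protein genes, 23 were below 0 at a median change of -0.33, and 6 fell by the edgeR quasi-likelihood test at an adjusted p under 0.01. Without control replicate 1 the count was 16, and without shE2F1 replicate 2 it was 2. Of 22 genes of oxidative phosphorylation 6 fell at a median of -0.11, with 3 without control replicate 2, 2 without shE2F1 replicate 1 and 1 without shE2F1 replicate 2. Lysosome and autophagy genes lay on the other side, with 10 of 22 rising, 1 falling and a median of 0.41, or 5 rising without shE2F1 replicate 1 and 5 without shE2F1 replicate 2. NEU1, a lysosomal sialidase, rose from 69.9 and 54.3 CPM to 155 and 144 CPM and was the only member called with all libraries, where 4 were called without control replicate 1 and 2 without shE2F1 replicate 2.

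Of 15 targets of NRF2, the regulator of antioxidant genes, 9 fell and 2 rose at a median of -0.51, or 4 fell without shE2F1 replicate 1 and 4 without shE2F1 replicate 2. Over all genes tested, 16.5% fell and 13.6% rose. NQO1, a quinone reductase, fell from 148 and 156 CPM to 62.2 and 60.4 CPM, and ME1, malic enzyme, from 12.2 and 12.9 CPM to 3.67 and 3.36 CPM. In the stress responses of the endoplasmic reticulum and of translation, ATF3 rose from 4.84 and 6.30 CPM to 21.8 and 23.0 CPM while ATF4 (0.11 ± 0.09) and DDIT3 (0.50 ± 0.20, overlapping another gene model on its strand) did not pass.

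Some markers of other cell types were among the called genes at low levels. CSF1R, a macrophage receptor gene, fell from 4.73 and 3.64 CPM to 0.531 and 0.271 CPM. VWF, of the same list, rose from 0.107 and 0.303 CPM to 1.4 and 0.814 CPM. Of the 4 tested genes of that list 1 rose and 1 fell, where 13.6% of all genes tested rose and 16.5% fell. TFF1, a luminal breast gene, had 2 and 2 counts in the control and 34 and 74 counts in the shE2F1 libraries. Among luminal markers AGR2 was also called higher (1.55), and SPDEF fell from 4.3 and 2.36 CPM to 0.724 and 0.651 CPM. Of the 8 luminal markers tested 3 rose and 2 fell. The edgeR adjusted p of TFF1 was 0.000764, or 0.0112 without shE2F1 replicate 2.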
